A study of Arabidopsis thaliana with 24 samples.

Results

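BHLH101, PYE, AT3G13610 and AT1G47400 are Arabidopsis thaliana genes tied to the response of the plant to iron deficiency. They were taken by name: each has 1 probe set annotated to that gene alone, 245692_at for BHLH101 (locus AT5G04150), 252427_at for PYE (locus AT3G47640), 256647_at for AT3G13610 and 261684_at for AT1G47400. They make up 4 of the 13513 probe sets with a single listed gene, and of the 22746 tested. Plants sense a lack of iron and switch on transcription factors of the bHLH class, which raise the uptake of iron by the root and its movement to the shoot. BHLH101 belongs to the bHLH group that works together with FIT, the regulator of root iron uptake, and is commonly used as a marker of iron shortage. PYE (POPEYE) is a bHLH factor that represses genes of iron transport and storage. AT3G13610, F6'H1 in RefSeq, is the hydroxylase that commits phenylpropanoids to coumarins, which roots release to dissolve iron. AT1G47400 encodes a short iron-deficiency peptide.

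RNA came from roots and shoots of wild type plants (WT, accession Col-0) and of oas-a1.1, a mutant of OASA1, the gene of the enzyme that makes cysteine from O-acetylserine in the cytosol. Plants grew in hydroponic solution that held iron as Fe-Na-EDTA in all groups, and either stayed untreated or received cadmium chloride, for 18 h before root harvest or 24 h before shoot harvest. The sample titles give hours for cadmium-treated plants only. If untreated plants were harvested at another hour, cadmium and hour of harvest cannot be told apart. The dose of cadmium is uncertain: the design text has 50 µM, whereas the protocols have 50 mM. Each of the 8 groups (2 organs, 2 genotypes, with or without cadmium) had 3 biological replicates on separate ATH1 arrays, 24 in all. Values are log2 RMA levels, a scale on which a difference of 1 is a doubling, and the number of arrays limits their precision. They come without detection calls, so the height of a low level above array background is unknown, and no fold is given against one. They are given in replicate order, and a mean carries its SD over 3 arrays. Nothing beyond the word biological says how replicates were grown, so p-values measure the spread between these samples. A difference was tested with limma over all 22746 probe sets, carries the standard error (SE) of that fit, and was called where the adjusted p fell under 0.05.

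OASA1 has no named probe set in the annotation used here. A single unnamed probe set fell most wherever the mutant was set against WT, in both organs and treatments, and read 10.48 to 12.28 on WT arrays and 4.05 to 4.51 on mutant arrays. Of 7 listed root markers, 3 had a probe set annotated to that gene alone. These averaged 8.17 to 9.18 on root arrays and 4.47 to 4.79 on shoot arrays. Of 25 listed photosynthesis markers, 3 had such a probe set, and they averaged 6.69 to 7.55 on root arrays and 12.30 to 12.72 on shoot arrays. A 25S ribosomal RNA control read under 7 on 8 arrays and above it on 16. The low arrays were replicate 1 of cadmium-treated WT roots, of both mutant root groups and of cadmium-treated WT shoots, replicates 1 and 2 of untreated WT shoots, and replicates 1 and 2 of cadmium-treated mutant shoots.

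**Figure D1:**
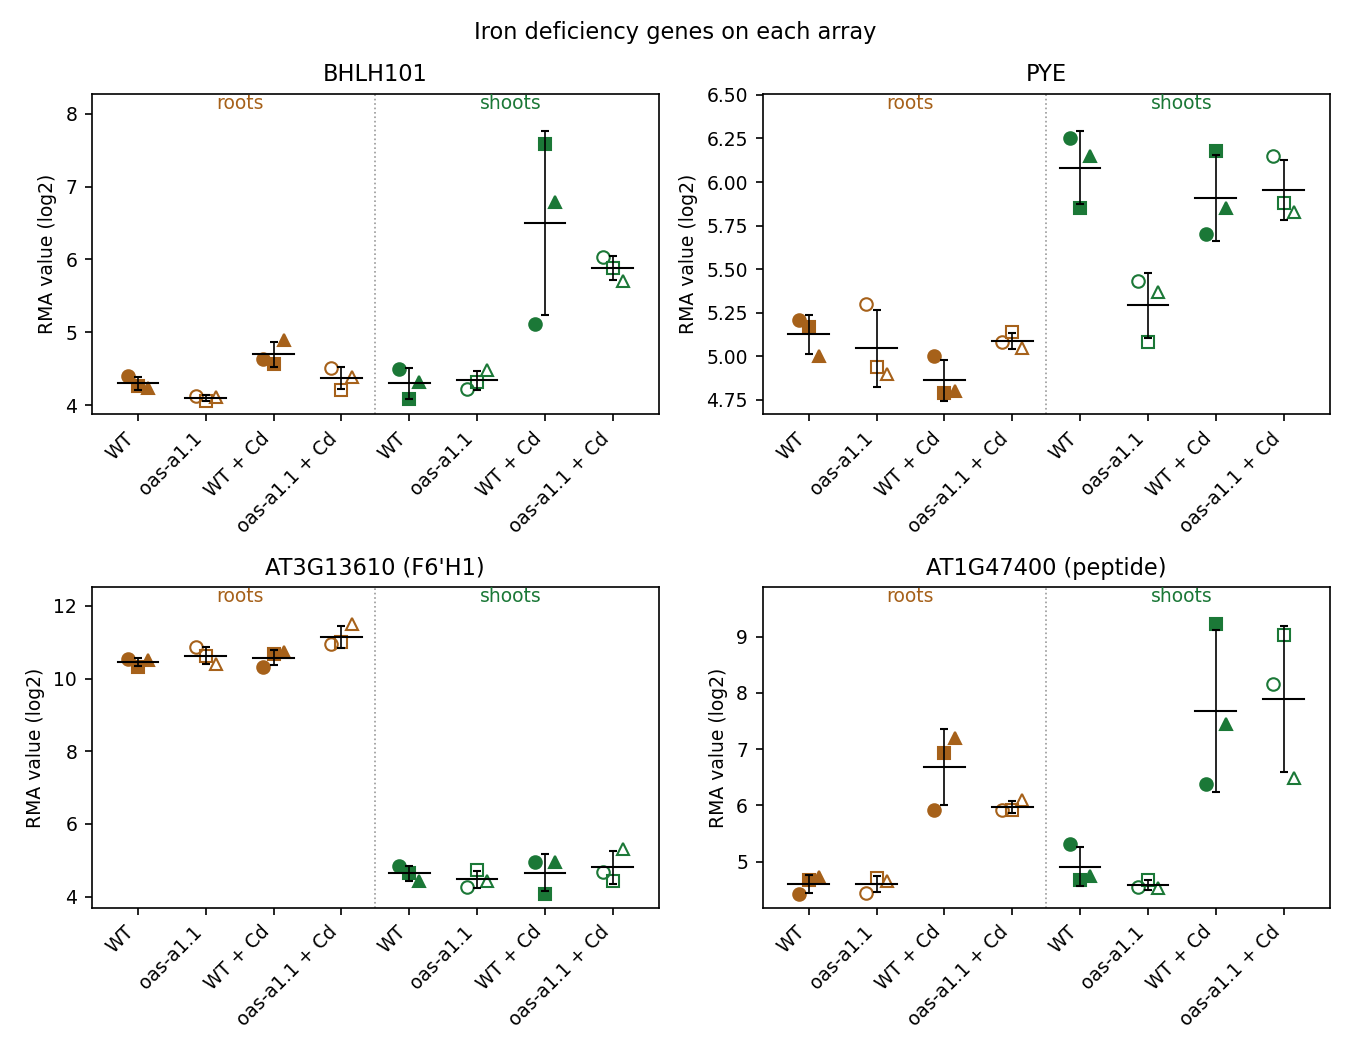
RMA level (log2) of each gene on each of the 24 arrays, with roots in brown and shoots in green, WT filled and oas-a1.1 open, and replicates 1, 2 and 3 as circle, square and triangle; bars are the mean and SD of 3 arrays. AT1G47400 is higher with cadmium in both organs, BHLH101 in shoots, and AT3G13610 lies above 10 on root arrays alone.

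AT1G47400, the peptide gene, was higher with cadmium in both organs and both genotypes. Untreated WT roots read 4.42, 4.67 and 4.72, and cadmium-treated WT roots 5.91, 6.94 and 7.20. The groups did not overlap, and replicate 1 was the lowest of the treated arrays. The rise was 2.08 ± 0.26 (SE) log2 units (adjusted p = 0.00123, limma), and its call held without any single array. Of the 4 genes it was the only one called in this comparison, in which 3.91% of all probe sets were called. Organ markers differed between the same arrays. The root marker average was 8.43 to 8.61 untreated and 8.73 to 9.18 with cadmium, and 1 of its 3 genes was called, PYK10 (0.71 ± 0.12, adjusted p = 0.00694, limma). The photosynthesis marker average was 6.69 to 7.03 untreated and 7.03 to 7.42 with cadmium, and 1 of its 3 genes was called, RCA (1.24 ± 0.30, adjusted p = 0.0455). The higher average came mostly from RCA: PSBY read 5.65 untreated and 5.80 with cadmium, and LHCB4.1 was lower, at 8.68 and 8.47. The part of these markers in the result was not tested.

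In mutant roots AT1G47400 read 4.44, 4.70 and 4.65 untreated and 5.91, 5.92 and 6.10 with cadmium. These groups also lay apart, with little spread on either side. The rise was 1.38 ± 0.26 (SE) (adjusted p = 0.0121, limma). It held without any single array and was lost when all 24 arrays shared a fit (adjusted p = 0.181). Again 1 of the 4 genes was called, against 4.26% of all probe sets. The root marker average was 8.17 to 8.47 untreated and 8.51 to 8.92 with cadmium, with PYK10 called (0.57 ± 0.12, adjusted p = 0.0196, limma). The photosynthesis marker average was 6.74 to 7.55 and 6.88 to 7.19, with none called, and the part of either list was likewise not tested.

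Cadmium-treated mutant roots read lower than cadmium-treated WT roots for AT1G47400, by -0.71 ± 0.26 (SE), which did not pass (adjusted p = 0.296, limma), and the groups overlapped at 5.91. The interval of that difference ran from -1.28 to -0.13 before adjustment. WT replicate 1 decided the call. Without it the difference was -1.09 (adjusted p = 0.0111) and the test of unequal cadmium responses gave -1.09 (adjusted p = 0.0484), against -0.70 ± 0.37 (adjusted p = 0.675) with it. The genotype difference was -0.58 (adjusted p = 0.663, limma) without WT replicate 2 and -0.45 (adjusted p = 0.707) without WT replicate 3. WT replicate 1 is one of the arrays with a low 25S level (5.60). Replicate 1 of cadmium-treated mutant roots had a lower one (4.75). For AT1G47400 it read 5.91, beside 5.92 in replicate 2, whose 25S level was 11.87. The part of the 25S level was not tested. A 25S level of 7 or more leaves out replicate 1 of cadmium-treated WT roots and of both mutant root groups. On the arrays it keeps, the genotype difference was -1.06 (adjusted p = 0.0315, limma). The test of unequal responses on those arrays gave -1.13 and did not pass (adjusted p = 0.0722). None of the 4 genes was called for mutant against WT in cadmium-treated roots or for the interaction in roots, where 1.74% and 0.747% of all probe sets were called.

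In shoots AT1G47400 reached its highest levels and varied most between arrays. Untreated WT shoots read 5.31, 4.67 and 4.74, and cadmium-treated WT shoots 6.38, 9.22 and 7.44. Every treated array lay above every untreated one, yet the treated arrays differed among themselves by 2.84 log2 units. The photosynthesis marker average was 12.30 to 12.56 untreated and 12.57 to 12.72 with cadmium, without overlap, none of its 3 genes was called, and its part was not tested. The rise was 2.77 ± 0.68 (SE) (adjusted p = 0.0394, limma). The call held without cadmium-treated replicate 1, where the rise was 3.42 (adjusted p = 0.0186). It was lost without any other of the 6 arrays, with values of 2.00 to 2.98 and adjusted p of 0.0739 to 0.133, and when only the 6 arrays were fitted (adjusted p = 0.0684). On arrays with a 25S level of 7 or more, which leave 1 untreated WT shoot array, it was 3.59 (adjusted p = 0.163).

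Untreated mutant shoots read 4.54, 4.68 and 4.53 for AT1G47400, and cadmium-treated mutant shoots 8.16, 9.03 and 6.49. The untreated arrays lay within 0.15 of each other and the treated ones far above them. Here the photosynthesis marker average was 12.34 to 12.38 untreated and 12.45 to 12.58 with cadmium, again without overlap and with none called, and its part was not tested. The rise was 3.31 ± 0.68 (SE) (adjusted p = 0.0322, limma). It was lost without any single array except cadmium-treated replicate 3, with values of 2.74 to 3.36 and adjusted p of 0.0654 to 0.122. When the 25S level entered the fit it was 3.04 (adjusted p = 0.104), and on arrays with a 25S level of 7 or more, which leave 1 treated mutant array, 1.91 (adjusted p = 0.432). Without replicate 3 the rise was 4.01 (adjusted p = 0.0142). The mutant and WT did not pass a test of unequal response in shoots (0.54 ± 0.97, interval -1.59 to 2.67, adjusted p = 0.912), an interval wide enough to hold large differences.

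The order of AT1G47400 levels ran from cadmium-treated mutant shoots (7.89 ± 1.29) through cadmium-treated WT shoots (7.68 ± 1.44), cadmium-treated WT roots (6.68 ± 0.68) and cadmium-treated mutant roots (5.98 ± 0.11). Neighbours among these 4 groups overlapped. All 4 lay above the untreated groups, which ran from 4.91 ± 0.35 in WT shoots to 4.58 ± 0.08 in mutant shoots and overlapped with each other in that order. Untreated levels were at or above 32.1% to 41.6% of all probe sets, and their height above background is unknown. Without cadmium the level did not pass between organs in WT (-0.30 ± 0.55, roots minus shoots, adjusted p = 0.706, limma) or in the mutant (0.01 ± 0.55, adjusted p = 0.987). In whole roots and shoots, more RNA per cell and more cells of a type that holds the RNA cannot be told apart.

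**Figure D2:**
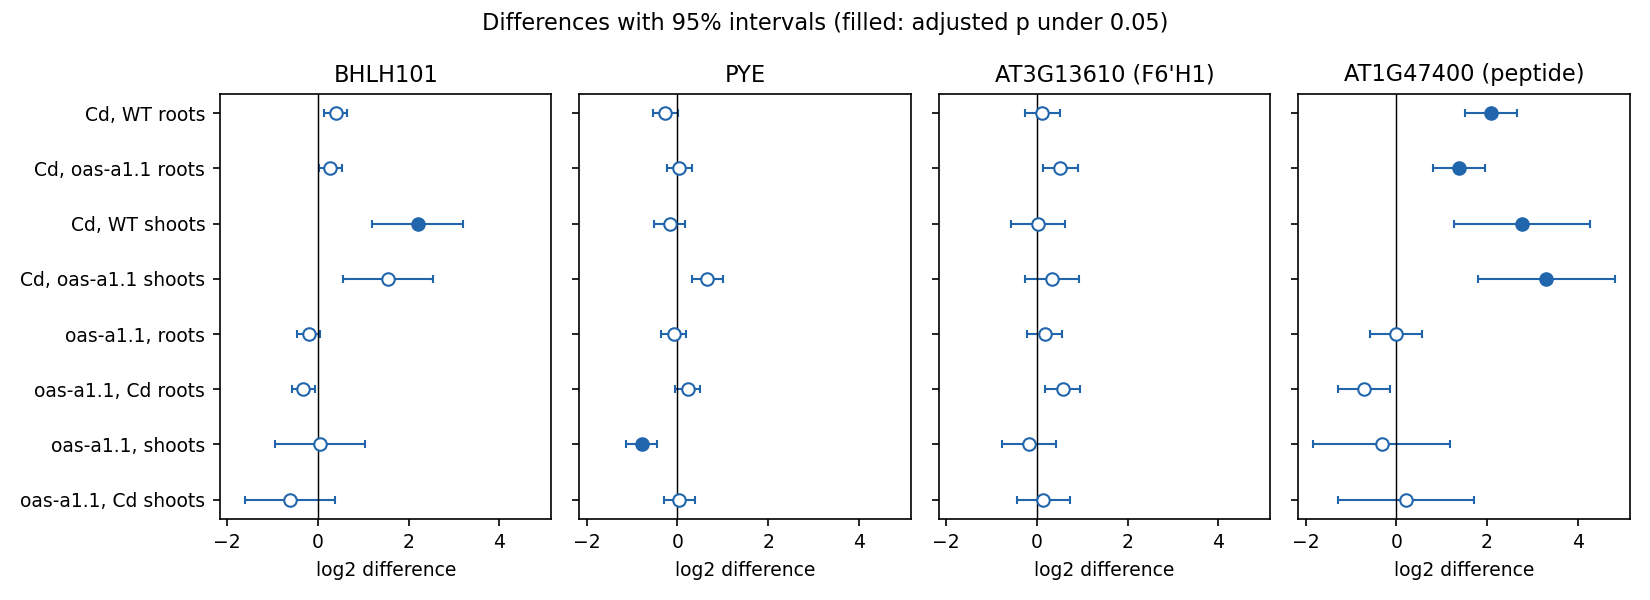
Log2 differences of the 4 genes in 8 comparisons (cadmium minus untreated in each organ and genotype, then oas-a1.1 minus WT in each organ and treatment), with 95% intervals from limma; filled points have an adjusted p under 0.05. AT1G47400 is filled in all 4 cadmium comparisons, BHLH101 in WT shoots and PYE in untreated mutant shoots.

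BHLH101, the bHLH marker of iron shortage, rose with cadmium in WT shoots. Untreated WT shoots read 4.50, 4.08 and 4.32, and cadmium-treated WT shoots 5.12, 7.59 and 6.79. The groups lay apart, and replicate 1 was again the lowest treated array, as it was for AT1G47400. The rise was 2.20 ± 0.45 (SE) (adjusted p = 0.0175, limma). It was lost without untreated replicate 1 (2.30, adjusted p = 0.0512), untreated replicate 2 (2.09, adjusted p = 0.0728) or cadmium-treated replicate 3 (2.06, adjusted p = 0.0648). Without cadmium-treated replicate 1 it was 2.89 (adjusted p = 0.000184), and without replicate 2 it was 1.66 (adjusted p = 0.0445). With 25S levels of 7 or more it was 2.87 (adjusted p = 0.0711), and with only the 6 arrays fitted the adjusted p was 0.0884. Of the 4 genes, 2 were called higher in WT shoots with cadmium, BHLH101 and AT1G47400, where 5.58% of all probe sets were called in either direction.

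In mutant shoots BHLH101 read 4.22, 4.32 and 4.48 untreated and 6.04, 5.89 and 5.71 with cadmium. The treated arrays lay close together and more than 1 log2 unit above every untreated array. The difference of 1.54 ± 0.45 (SE) did not pass in the fit of 12 shoot arrays (adjusted p = 0.127, limma). That fit shares 1 estimate of the spread over 4 groups, and the SD of BHLH101 was 1.26 in cadmium-treated WT shoots against 0.17 in cadmium-treated mutant shoots. With only the 6 mutant arrays fitted, the same difference had an adjusted p of 0.00577, and with all 24 arrays 0.0175. Those were 2 of 14 alternatives; in the others it was not called, with an adjusted p of up to 0.313, and of 0.175 to 0.309 without single arrays. AT1G47400 was the 1 gene of the 4 called in mutant shoots, where 2.18% of all probe sets were called. The responses of the genotypes did not pass a test of their difference (-0.66 ± 0.64, interval -2.07 to 0.75, adjusted p = 0.784).

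BHLH101 stayed near the lower end of the scale in roots. Untreated WT roots read 4.40, 4.26 and 4.24, at or above 21.6% of all probe sets on the same arrays, and cadmium-treated WT roots 4.63, 4.57 and 4.89. The groups did not overlap, but the difference of 0.40 ± 0.12 (SE) did not pass (adjusted p = 0.0974, limma). With replicate number as a block its adjusted p was 0.0475. Mutant roots read 4.13, 4.06 and 4.11 untreated and 4.51, 4.21 and 4.39 with cadmium, a difference of 0.27 ± 0.12 (adjusted p = 0.311). These root levels are among the low ones whose height above background is unknown.

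Across the 8 groups BHLH101 was highest in cadmium-treated WT shoots (6.50 ± 1.26) and cadmium-treated mutant shoots (5.88 ± 0.17), which overlapped. Cadmium-treated WT roots came next at 4.70 ± 0.17, overlapping neither neighbour in the order. The remaining 5 groups lay between 4.10 ± 0.04 and 4.37 ± 0.15, each overlapping the next. Without cadmium BHLH101 read the same in WT roots and WT shoots, 4.30 in both, with an interval of -0.73 to 0.73 for the difference. Those levels were at or above 21.6% and 24.1% of all probe sets, and that of untreated mutant shoots 26.0%. The height of these shoot levels above background is therefore unknown as well, and equal readings need not mean equal expression.

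PYE, the repressor of transport and storage genes, differed between the genotypes in untreated shoots. WT shoots read 6.25, 5.85 and 6.15 and mutant shoots 5.43, 5.08 and 5.37, with no overlap. These levels were at or above 59.9% of all probe sets in WT and 48.7% in the mutant. PYE was lower in the mutant by -0.79 ± 0.15 (SE, adjusted p = 0.0352, limma). It was lost without WT replicate 1 (-0.71, adjusted p = 0.142), WT replicate 2 (-0.91, adjusted p = 0.0626), mutant replicate 2 (-0.68, adjusted p = 0.143) or mutant replicate 3 (-0.83, adjusted p = 0.0823), and when the 25S level entered the fit (-0.80, adjusted p = 0.0581), on arrays with a 25S level of 7 or more (-0.86, adjusted p = 0.529) or with only the 6 arrays fitted (adjusted p = 0.0898). Both WT replicates 1 and 2 have a low 25S level and no mutant array of this comparison does. PYE was the only one of the 4 genes called in this comparison, in which 1.46% of all probe sets were called.

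With cadmium the genotypes overlapped for PYE in shoots: 5.70, 6.18 and 5.85 in WT and 6.15, 5.88 and 5.83 in the mutant. The difference was 0.04 ± 0.15 (SE, interval -0.30 to 0.38, adjusted p = 0.976, limma). In mutant shoots cadmium-treated arrays all lay above untreated ones, by 0.66 ± 0.15, just short of the threshold (adjusted p = 0.0552). In WT shoots the difference was -0.17 ± 0.15 and the groups overlapped (adjusted p = 0.691). The test of unequal responses gave 0.83 ± 0.22 (adjusted p = 0.133), and 0.0464 when all 24 arrays shared a fit. None of the 4 genes was called for mutant against WT in cadmium-treated shoots or for the interaction in shoots, where 0.154% and 0.444% of all probe sets were called.

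PYE was lower in roots than in shoots of untreated WT. Roots read 5.21, 5.17 and 5.00, all below the shoot arrays given above. The difference was -0.96 ± 0.14 (SE, roots minus shoots, adjusted p = 1.01e-05, limma), and its call held without any single array. In the untreated mutant, roots at 5.30, 4.94 and 4.90 overlapped shoots (-0.25 ± 0.14, adjusted p = 0.175). The mutant effect on PYE did not pass a test between untreated roots and untreated shoots (0.71 ± 0.20, adjusted p = 0.127), nor did that on the other 3 genes, where 0.761% of all probe sets were called. In roots PYE read 5.00, 4.79 and 4.80 in cadmium-treated WT and 5.08, 5.14 and 5.05 in the cadmium-treated mutant. Neither root response passed (-0.26 ± 0.12, adjusted p = 0.37, in WT and 0.04 ± 0.12, adjusted p = 0.995, in the mutant).

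In its order over the 8 groups, PYE was highest in untreated WT shoots (6.08 ± 0.21), then in cadmium-treated mutant shoots (5.95 ± 0.17) and cadmium-treated WT shoots (5.91 ± 0.25), and these overlapped. Untreated mutant shoots lay apart from them at 5.29 ± 0.19, overlapping untreated WT roots at 5.13 ± 0.11. Root groups ran down to 4.86 ± 0.12 in cadmium-treated WT roots, each overlapping the next.

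AT3G13610, the coumarin enzyme, was far higher in roots than in shoots. Untreated WT roots read 10.53, 10.32 and 10.51 and untreated WT shoots 4.85, 4.64 and 4.44. No root array of the series came near a shoot array: roots ran from 10.32 to 11.49 and shoots from 4.07 to 5.31. Roots exceeded shoots by 5.81 ± 0.24 (SE) in untreated WT (adjusted p = 2.83e-14, limma) and by 6.16 ± 0.24 in the untreated mutant (adjusted p = 1.09e-14). Of the 4 genes 2 were called between the organs of WT, AT3G13610 higher in roots and PYE lower, and 1 between those of the mutant, AT3G13610. Organs differed widely in any case: 44.2% of all probe sets were called in WT and 45.2% in the mutant. Both calls of AT3G13610 held without any single array.

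Cadmium did not raise AT3G13610 past the threshold in either genotype. Cadmium-treated WT roots read 10.33, 10.68 and 10.72, overlapping the untreated ones, a difference of 0.12 ± 0.17 (SE, interval -0.26 to 0.51, adjusted p = 0.843, limma). Untreated mutant roots read 10.87, 10.62 and 10.40 and cadmium-treated mutant roots 10.94, 11.01 and 11.49. These last 2 groups did not overlap, and the difference was 0.52 ± 0.17 (adjusted p = 0.159). Cadmium-treated mutant roots also lay above every cadmium-treated WT root array, by 0.57 ± 0.17, without passing (adjusted p = 0.172). The order over groups put cadmium-treated mutant roots first (11.15 ± 0.30), apart from the other root groups at 10.45 ± 0.12 to 10.63 ± 0.24, which overlapped in order.

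In shoots AT3G13610 read 4.96, 4.07 and 4.96 in cadmium-treated WT, 4.26, 4.74 and 4.42 in the untreated mutant and 4.69, 4.43 and 5.31 in the cadmium-treated mutant. All 4 shoot groups overlapped, with levels at or above 30.3% to 39.6% of all probe sets. Their differences between treatments and genotypes lay between -0.17 and 0.34, and none passed (adjusted p of 0.689 to 0.989, limma). In untreated roots, mutant and WT did not differ past the threshold for any of the 4 genes, where 0.356% of all probe sets were called. Those differences were -0.20 ± 0.12 for BHLH101, whose groups did not overlap, -0.08 ± 0.12 for PYE, 0.18 ± 0.17 for AT3G13610 and -0.01 ± 0.26 for AT1G47400.

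**Figure D3:**
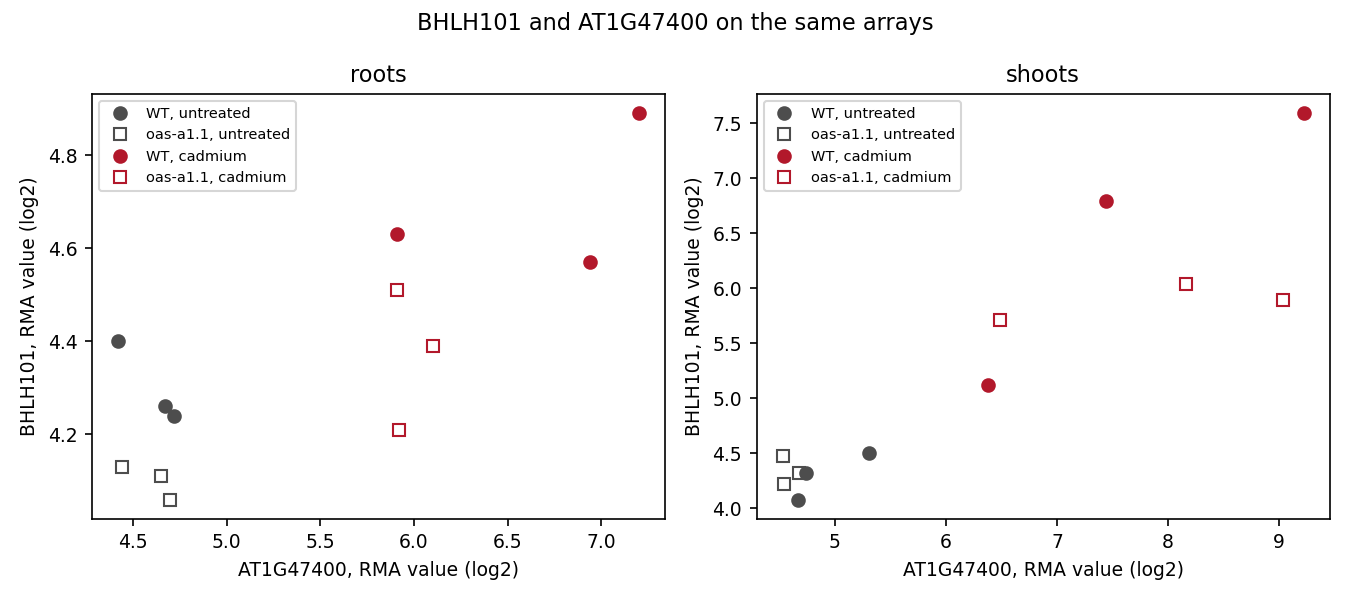
RMA level (log2) of BHLH101 against that of AT1G47400, each point 1 array, roots on the left and shoots on the right with axes of their own; red points are cadmium-treated, filled circles WT and open squares oas-a1.1. In shoots both genes are high on the same arrays, and in roots BHLH101 spans under 1 log2 unit.

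BHLH101 and AT1G47400 had the most similar patterns of the 6 pairs among the 4 genes. With the mean of each organ subtracted, their levels correlated at r = 0.86 over 24 arrays. Among the other 13512 probe sets with a single gene, each was the one most like the other by this measure. Within organs r was 0.80 over 12 root arrays and 0.91 over 12 shoot arrays. The arrays are shared and both genes differ with cadmium, so part of r is the step between treated and untreated groups. With the mean of each group subtracted instead, r was 0.71. That value rests largely on the 3 arrays of cadmium-treated WT shoots. There the SD of BHLH101 was 1.26, against 0.04 to 0.21 in the other groups. In WT shoots with cadmium both genes were lowest in replicate 1 and highest in replicate 2. The order of replicates differed between the genes elsewhere: in cadmium-treated mutant shoots BHLH101 was highest in replicate 1 and AT1G47400 in replicate 2, and in cadmium-treated WT roots BHLH101 was lowest in replicate 2 and AT1G47400 in replicate 1.

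PYE followed neither of them in one way across organs: against AT1G47400 its r was -0.61 in roots and 0.49 in shoots, and against BHLH101 -0.45 and 0.43. Those values include the steps between groups. With group means subtracted, the r of PYE over 24 arrays was positive with both, 0.33 with AT1G47400 and 0.54 with BHLH101. AT3G13610 correlated with the other 3 genes at -0.02 to 0.07 once organ means were subtracted. With group means subtracted its r was -0.42 with BHLH101, -0.40 with PYE and -0.57 with AT1G47400, and within roots its r with AT1G47400 was 0.37, so these values depend on what is subtracted. After AT1G47400, the genes most like BHLH101 were AT2G29670 (r = 0.85) and AT1G29700 (r = 0.85). After BHLH101, those most like AT1G47400 were AT5G43260 (r = 0.85) and AT1G73600 (r = 0.84). With cadmium AT1G73600 read 1.82 higher in WT roots, 1.69 higher in mutant roots, 2.92 higher in WT shoots and 1.75 higher in mutant shoots, given as a description since it was picked for its pattern. Closest to PYE were AT5G56020 (r = 0.78), AT3G28530 (r = 0.75) and AT5G43460 (r = 0.75). Closest to AT3G13610 were AT4G17480, OPCL1 and AT1G74640, each at r = 0.72.

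The other genes of iron handling were taken from 6 lists. Of their 79 genes (regulators, peptides, uptake and reduction, coumarin synthesis and export, transport and chelation, storage), 24 had a probe set with a single gene, including the 4 described above. Those 24 are called measured here. All 13 genes on the uptake and reduction list, which holds the iron transporter IRT1 and the ferric reductase FRO2, lacked such a probe set in the annotation used. Genes without one may still lie among the tested probe sets that list several genes (503) or none (8730). Among the other 20 measured genes, 2 were called lower with cadmium in WT roots and none higher, with a median of 0.07 over their 21 probe sets against 0.02 over all probe sets, of which 3.91% were called. In mutant roots, WT shoots and mutant shoots none was called in either direction, with medians of -0.03, 0.00 and -0.05 against -0.01, 0.00 and 0.00 over all. The shares called over all probe sets there were 4.26%, 5.58% and 2.18%.

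bHLH121, a bHLH factor that acts above the iron deficiency regulators, fell in WT roots with cadmium by 0.93 ± 0.22 (SE) log2 units, from 8.06 ± 0.38 (SD) to 7.13 ± 0.11 (SD) (adjusted p = 0.0415, limma). Its call held only without untreated replicate 3 (-1.10, adjusted p = 0.0301) among the arrays left out in turn, with -0.72 to -0.99 and adjusted p of 0.0612 to 0.164 without the others. In mutant roots it read -0.03 ± 0.22. BGLU42, a beta-glucosidase linked to coumarin release, fell in WT roots by 0.70 ± 0.13 (adjusted p = 0.0117). That call was lost without untreated replicate 2 (-0.69, adjusted p = 0.0532) or cadmium-treated replicate 2 (-0.66, adjusted p = 0.051). The mutant root difference of BGLU42 was -0.20 ± 0.13.

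On the coumarin list the largest root difference was in AT3G12900, at -1.29 ± 0.45 (SE) in WT (adjusted p = 0.179, limma) and -1.19 ± 0.45 in the mutant (adjusted p = 0.232). Neither passed, although the treated and untreated groups did not overlap in either genotype. F6'H2, the near relative of AT3G13610 by name in RefSeq, differed with cadmium by 0.29 in WT roots and 0.03 in mutant roots, without passing (adjusted p = 0.502 and 0.997, limma). On the regulator list, the largest positive root difference outside the 4 genes was in AT1G74770, at 0.83 ± 0.25 in WT (adjusted p = 0.107) and 0.52 ± 0.25 in the mutant (adjusted p = 0.399). Its second probe set gave 0.07 and 0.28, so the probe sets of that gene differ in size.

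Between the untreated organs of WT, 8 of the 21 probe sets of these other genes were called higher in roots and 1 lower, where 44.2% of all probe sets were called. Among the higher ones were AT1G74770 at 3.84 ± 0.28 (SE, adjusted p = 3.55e-10, limma), bHLH115, a bHLH factor of the group that switches on iron deficiency genes, at 2.91 ± 0.15 (adjusted p = 9.77e-13), and AT1G18910 at 2.87 ± 0.20 (adjusted p = 1.37e-10). The second probe set of AT1G74770 differed far less, at 4.51 in untreated WT roots and 3.86 in untreated WT shoots. The first read 8.24 and 4.40. On the coumarin list AT3G12900 was higher by 1.49 ± 0.36 and AT1G28680 by 1.46 ± 0.17. In the untreated mutant 12 were called higher and 1 lower, where 45.2% of all were called. With shares this high over all probe sets, nothing is read from these counts about iron genes as a group. No other measured iron gene was called for mutant against WT in either organ, with or without cadmium, or for an interaction.

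**Figure D4:**
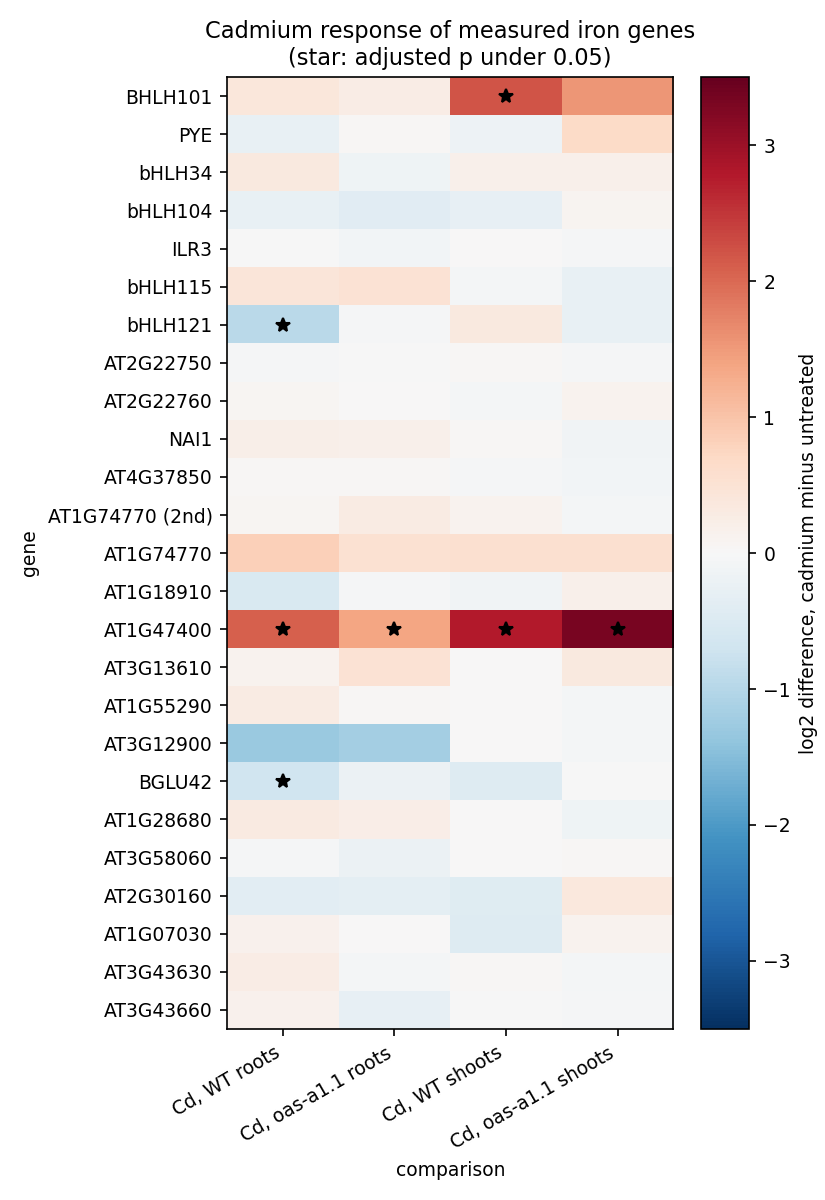
Log2 difference with cadmium (colour, treated minus untreated) of every measured gene on the iron lists in WT roots, oas-a1.1 roots, WT shoots and oas-a1.1 shoots; a star marks an adjusted p under 0.05 (limma). AT1G47400 is starred in all 4 columns, BHLH101 in WT shoots, and bHLH121 and BGLU42 in WT roots, where they are lower.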

How the data were processed

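The deposited log2 values were made by the authors with RMA (background correction, quantile normalization and a summary per probe set) in the affy package, per the submitters' processing notes. No source used here gives versions or says whether all arrays were normalized together. All 24 columns were matched to sample labels, and 0 were left over. Tests ran on 22746 probe sets at any level, after removal of 64 controls. The platform annotation lists 1 gene for 13513 probe sets, several for 503 and none for 8730; 13436 were matched to RefSeq (TAIR10.1) and 77 were not.

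Each organ's 12 arrays were fitted as 4 group means with limma 3.58.1 in R 4.3.3. Contrasts between organs used a fit of all 24 arrays. Tests were two-sided with Benjamini-Hochberg adjustment over all probe sets, and an adjusted p under 0.05 was called. The fit was also run on simulated root values, independent between arrays and with the same spread in every group. That run does not cover the unequal spreads or linked replicates seen in these data, and no result here rests on it. The 4 genes, the gene lists, the 25S boundary of 7 and the tests were chosen with earlier results of these data known. Named genes were the 4, other listed genes called in any comparison or highest in mean level, and the 3 genes most like each by Pearson r over 24 arrays after subtracting organ means. Alternatives changed the scaling, the filter, the arrays in the fit, the prior, the replicate block and the arrays with a low 25S level, and left out each array in turn. Whether replicate numbers pair arrays was checked by correlating deviations from group means. Every pair exceeded 0.1 only for mutant against WT roots with cadmium (0.11 to 0.64). In the other comparisons within roots, replicates 1 and 3 gave 0.39 to 0.60 and replicate 2 gave -0.15 to 0.02. Within shoots, mutant against WT with cadmium gave 0.07 to 0.49, cadmium in WT 0.04 to 0.29 and cadmium in the mutant 0.02 to 0.24. Mutant against WT in untreated shoots gave -0.25 to 0.14. The numbers may therefore pair arrays in other comparisons too, and the main fits took no account of it. Cadmium responses were not compared between organs because the hours differ.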

Additional observations from a re-analysis of the deposited data

How the results depend on the processing

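Counts of called genes among the 4 changed as follows. For WT shoots with cadmium (2 called) the count was 1 in the upper 60% of probe sets by level, where BHLH101 was filtered out, 1 with a trended and robust prior, and 0 with the compared arrays alone or with 25S levels of 7 or more; leaving out an array gave 0 to 2. For mutant shoots with cadmium (1 called) it was 2 in the upper 60%, 3 with all 24 arrays in one fit, 2 with the compared arrays alone, and 0 with the trended prior, with the 25S level as a covariate or with 25S levels of 7 or more; leaving out an array gave 0 to 1. For mutant against WT in untreated shoots (1 called) it was 0 with the compared arrays alone and under both 25S settings, and 0 to 1 without single arrays. Mutant roots with cadmium (1 called) gave 0 with all 24 arrays, and the shoot interaction (0 called) gave 1. WT roots with cadmium (1 called) gave 2 with replicate number as a block, which adds BHLH101. Where the numbers pair arrays (mutant against WT in cadmium-treated roots, 0 called) the block changed no call, while 25S levels of 7 or more gave 1 and leaving out an array 0 to 1. The root interaction (0 called) gave 0 to 1 without single arrays, and roots against shoots in the mutant (1 called) gave 2 with 25S levels of 7 or more. In shoots that setting left 1 array in 2 groups, assumed to vary like the others. The cause of these changes was not tested, beyond the fewer arrays or probe sets that some settings hold.

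Signs turned in 33 of 819 recomputed differences of the 4 genes, in 11 results (each 1 gene in 1 comparison) and for 0 called values. For AT1G47400 they were mutant against WT in untreated roots (0.0067 centred, 0.088 with the 25S covariate, 0.072 with high 25S, -0.10 to 0.072 without single arrays), roots against shoots in the mutant (-0.085 by quantiles, -0.11 with the block, -0.038 to 0.092), mutant against WT in cadmium-treated shoots (-1.84 with high 25S, -0.44 to 0.98) and the shoot interaction (-1.68 with high 25S, -0.11 to 1.31). For BHLH101 they were roots against shoots in the mutant (0.10 with the block) and mutant against WT in untreated shoots (-0.13 with the covariate, -0.07 to 0.14). For PYE they were cadmium in mutant roots (-0.03 to 0.17) and mutant against WT in cadmium-treated shoots (-0.19 with high 25S, -0.062 to 0.18). For AT3G13610 they were mutant against WT in untreated shoots (0.033 with high 25S), cadmium in WT shoots (-0.13 to 0.32) and mutant against WT in cadmium-treated shoots (-0.15 to 0.34). Counts of calls over all probe sets, here with the count reported in brackets, ranged over every alternative as follows. The mutant in untreated roots gave 17 to 246 (81), cadmium in WT roots 428 to 1547 (889), cadmium in mutant roots 578 to 1516 (970), the mutant in cadmium-treated roots 116 to 689 (395) and the root interaction 39 to 441 (170). The mutant in untreated shoots gave 1 to 838 (331), cadmium in WT shoots 8 to 1702 (1270), cadmium in mutant shoots 2 to 768 (496), the mutant in cadmium-treated shoots 1 to 88 (35), the shoot interaction 0 to 607 (101) and the mutant effect between organs 12 to 444 (173). Interactions within an organ already rest on its 12 arrays, so no fit of compared arrays alone was run for them.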
